A study of Sus scrofa with 2 samples.

Results

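Barcodes with more than 5000 detected genes were studied in the somatic cells of 2 pig antral follicles, whatever their mitochondrial share. They were selected on the number of detected genes, so that number and the UMIs behind it are described and not tested. There were 139 such barcodes among 14289 in AF75 (0.973%) and 166 among 15548 in AF76 (1.07%), 305 of 29837 in all. They are called the gene-rich barcodes here. They were set against 9362 reference barcodes of AF75 and 7843 of AF76 that had 2000 to 5000 genes and less than 7% of their unique molecular identifiers (UMIs, which count captured transcripts) from the 13 mitochondrial genes.

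Both follicles came from 1 Landrace × Yorkshire pig that was 210 days old and had been given pregnant mare serum gonadotropin (PMSG), and both were over 7 mm in diameter. The flushed fluid and the cumulus cells freed by hyaluronidase went into 1 droplet library (10x Genomics 3′ v3.1) per follicle. AF75 is follicle 1 and AF76 follicle 2 by the names that the submitters gave to their data, and no difference in treatment between them is stated. With 1 library per follicle there was no replicate, so no test between groups was made. Intervals are at 95%, cover counting error only and are exact: Poisson for levels in CPM (UMIs of a gene scaled to the same total in each set), conditional for ratios and Clopper-Pearson for shares.

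Granulosa cells line the antral follicle as mural cells and surround the oocyte as cumulus cells. They make inhibin, whose alpha subunit is encoded by INHA, and convert cholesterol and androgens into progesterone and oestradiol. In a droplet library a barcode stands for a droplet. It can hold a single cell or more, and its count does not say which.

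The gene-rich barcodes were deeper than the reference by the median, and the sets overlapped. In AF75 they held 23816 to 95248 UMIs, with a median of 30851, against a median of 11254.5 and a highest value of 32340 in the reference. In AF76 they held 20605 to 90527 with a median of 30612.5, against a median of 13902 and a highest value of 32958. They made up 3.75% of all UMIs of AF75 and 4.17% of those of AF76. Every gene-rich barcode had at least 20000 UMIs, as did 4.38% of the reference barcodes of AF75 and 8.20% of those of AF76. Medians of detected genes were 5287 and 5277 in the respective follicles, against 3167 and 3479 in the reference. More than 6000 genes were found in 18 barcodes of AF75 and 11 of AF76, and more than 7000 in 3 and 1.

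Near the limit the change in depth was gradual. The 38 barcodes of AF75 within 100 genes below the limit had a median of 25603 UMIs, and the 30 within 100 genes above it 26967.5. In AF76 the 50 barcodes just below had 27618.5 and the 38 just above 27913. No barcode above the limit in AF75 and 1 in AF76 had 7% or more mitochondrial UMIs. Mitochondrial UMIs had a median share of 2.42% (AF75) and 3.03% (AF76), against 2.58% and 2.96% in the reference, and ribosomal protein genes one of 9.33% and 9.88%, against 9.35% and 10.3%. The libraries had 56 barcodes in common, none of them gene-rich.

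Most of the excess in genes was matched by the excess in UMIs. When each barcode was thinned at random to 5000 UMIs, the gene-rich barcodes had a median of 2058 genes in AF75 and 2062 in AF76, against 1972 and 1951 in the reference. The reference barcodes with 4000 to 5000 genes lay between, at 2034 and 2006. At 20000 UMIs the medians were 4461 and 4418, against 4320.5 and 4205 in the reference barcodes that had that many.

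**Figure D1:**
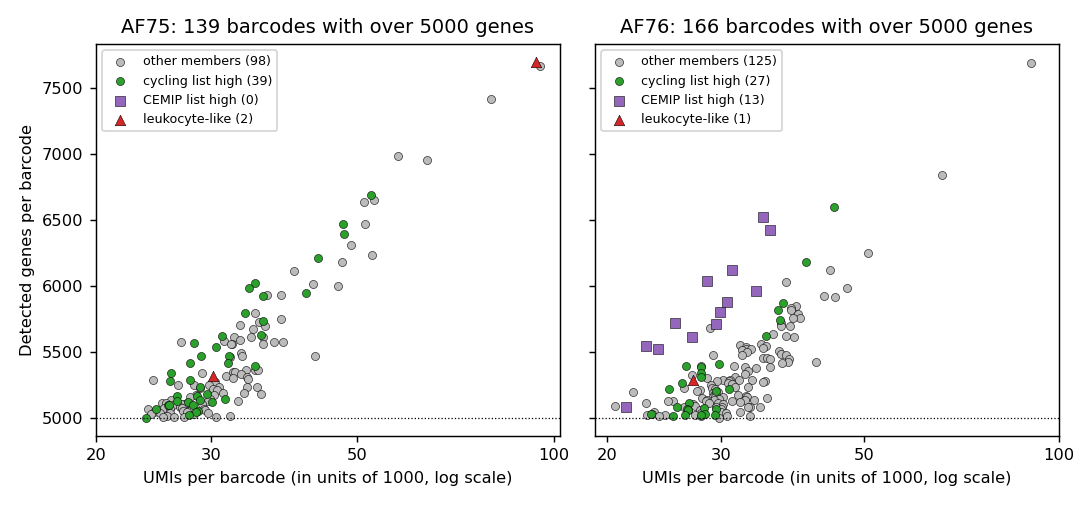
Detected genes against UMIs (in units of 1000, log scale) of each barcode with over 5000 genes, by follicle; the dotted line is the limit of 5000 genes. Each barcode is drawn once: leukocyte-like barcodes first, then those high in the CEMIP list, then those high in the cycling list, so that 39 of the 41 cycling barcodes of AF75 and 27 of the 30 of AF76 are green, and most purple squares lie above the other barcodes of like UMI count.

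The summed profile of the gene-rich barcodes was close to that of the reference in both follicles, apart from a set of genes of cell division. Over the 7351 genes of AF75 with a mean of at least 10 CPM, the median log2 ratio of gene-rich to reference barcodes was 0.05, and 90% of genes lay between -0.21 and 0.40. Over 7315 genes of AF76 the median was 0.08 and the range -0.18 to 0.45. In AF75 166 genes were at least 1.5-fold higher (2.26% of those measured) and 13 at least 1.5-fold lower (0.177%). In AF76 171 (2.34%) were higher and 11 (0.15%) lower. Of the 7113 genes measured in both follicles, 54 (0.759%) were higher in each and 2 (0.0281%) lower in each. A single barcode held over 10% of the UMIs of 87 of the higher genes in AF75 and of 45 in AF76, and over 50% for 26 and 2 of them, so part of these calls rest on single droplets.

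Of the 54 genes higher in both follicles, 19 were on the lists of S phase and G2/M phase genes, the periods of DNA copying and of preparation for and passage through division. KIF11, the motor that separates the spindle poles, had the largest mean difference. It stood at 35.7 CPM against 8.08 in AF75 (log2 ratio 2.14) and at 26.0 against 2.86 in AF76 (3.18). TOP2A, which untangles DNA before chromosomes separate, was at 94.0 against 25.01 CPM in AF75 and 73.0 against 9.73 in AF76. DLGAP5, CENPE, UBE2C, TPX2 and BIRC5, which act on the spindle, at the kinetochore or in the breakdown of mitotic proteins, had log2 ratios from 1.66 to 1.89 in AF75 and from 2.50 to 3.01 in AF76. The histone genes HIST1H2AB and HIST1H1E were also among the 54, with log2 ratios of 1.62 and 1.56 in AF75 and 1.39 and 1.17 in AF76. They belong to families of near-identical copies, so their counts are uncertain. A single barcode held 27.2% and 33.5% of their UMIs in AF75 and 13.3% and 12.3% in AF76.

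With a mean of at least 20 CPM in both follicles and no barcode holding over 10% of a gene's UMIs, 10 of 5258 genes were higher in both. CENPF, a kinetochore protein made before mitosis (chromosome 9, 128948386 to 129012241, Sscrofa11.1), was at 102 CPM against 29.3 in AF75, a ratio of 3.47 (3.15–3.82). In AF76 CENPF was at 72.6 CPM against 11.0, a ratio of 6.58 (5.85–7.38). CENPF UMIs were seen in 55 of the 139 barcodes of AF75 and 36 of the 166 of AF76, and none was seen in the rest. SMC2 and SMC4, the core pair of the condensin complex that compacts chromosomes, were among them. SMC2 (chromosome 1, 245409559 to 245459032) was at 68.7 against 27.0 CPM in AF75 and 53.1 against 20.8 in AF76, and SMC4 at 77.2 against 37.1 and 69.6 against 34.6.

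CENPW, a centromere protein, was at 130.5 against 56.9 CPM in AF75 and at 36.9 against 14.1 in AF76. CKS2 and CKS1B, the small partners of cyclin-dependent kinases, had log2 ratios of 0.86 and 0.81 in AF75 and 1.07 and 0.71 in AF76. HMGB2, a chromatin protein abundant in dividing cells, was at 249 against 145 CPM in AF75 and at 262 against 155 in AF76, with UMIs in 135 and 164 of the gene-rich barcodes. TOPBP1, which acts at stalled replication forks, had log2 ratios of 0.88 and 0.72. FAM198B and TXNIP, an inhibitor of thioredoxin, completed the 10 and are not known as division genes. TXNIP was at 64.8 against 41.7 CPM in AF75 and 202 against 131 in AF76. In AF76 548 of its 1073 UMIs lay in 13 barcodes high in the CEMIP list. The other 153 stood at 106 CPM, under the reference, which kept its own barcodes high in that list. Within the same limits ENSSSCG00000034846 was the 1 gene that was lower in both, at 15.3 against 42.4 CPM in AF75 and 16.9 against 31.8 in AF76. The other gene lower in both was TGM3, a transglutaminase, at 28.9 against 49.3 CPM and 6.40 against 14.7, with 22.1% and 47.1% of its UMIs in a single barcode.

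**Figure D2:**
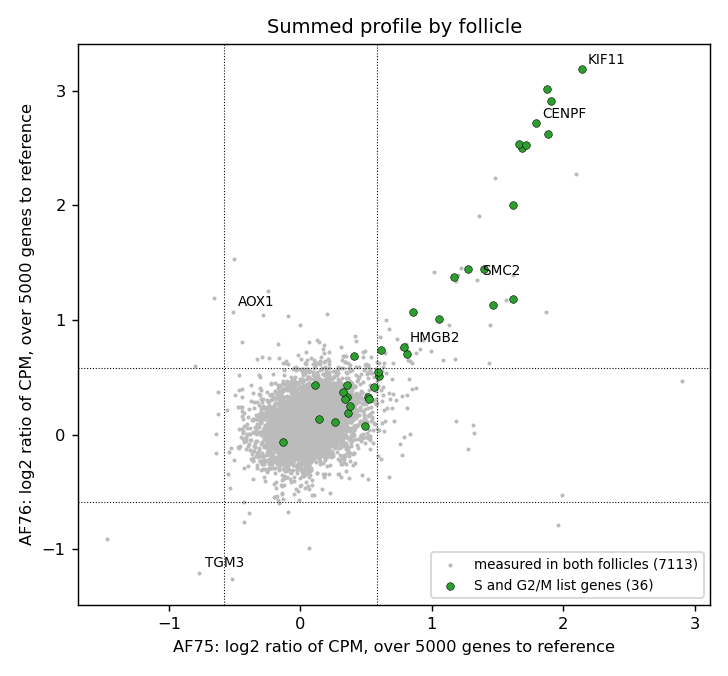
log2 ratio of CPM, gene-rich to reference barcodes, in AF75 (x axis) and AF76 (y axis) for the 7113 genes measured in both; green points are the 36 genes of the S and G2/M lists and dotted lines mark 1.5-fold. The cloud of genes sits near 0 on both axes, and 35 of the 36 list genes are above 0 in both follicles, up to KIF11 at 2.14 and 3.18.

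Counted over whole lists, G2/M genes had the most even shift. Of the 29 G2/M genes measured in AF75, 24 were at least 1.5-fold higher, and the list as a whole was at 2055 CPM against 1129, a ratio of 1.82 (1.78–1.86). In AF76 19 of 24 were higher and the list was at 1729 against 931 CPM, a ratio of 1.86 (1.82–1.90). The median log2 ratio of the list was 1.40 in AF75 and 1.25 in AF76. S phase genes were less shifted. In AF75 5 of 15 were higher and the list was at 681 against 448 CPM, a ratio of 1.52 (1.47–1.58). Each of the 5 (MCM5, MCM7, GINS2, CLSPN and ATAD2) had over 10% of its UMIs in a single barcode. A single barcode, the larger of the leukocyte-like ones described below, held 421 of the 3204 UMIs of the list in AF75. The S phase ratio of AF75 thus rests in part on that droplet. In AF76 1 of 12 was higher, ATAD2, and the list was at 557 against 409 CPM, a ratio of 1.36 (1.31–1.41). PCNA, the sliding clamp of DNA polymerase, had log2 ratios of 0.56 and 0.41, with 25.15% and 4.09% of its UMIs in a single barcode.

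The shift came from a minority of the barcodes. A barcode was called high in a list when, at 5000 UMIs, it had more UMIs of that list than 95% of the reference of its follicle, and at least 3. In AF75 41 of the 139 gene-rich barcodes (29.5%, 22.1–37.8) were high in the joined S and G2/M list, here the cycling list, against 4.90% of the reference. In AF76 30 of 166 (18.1%, 12.5–24.8) were high, against 4.88%. Both phases were high in 16 of the 41 and 17 of the 30. In AF75 the cycling barcodes had a median of 29594 UMIs, against 31770 in the other gene-rich barcodes, and in AF76 28125 against 31234.5. By the median, cycling barcodes were thus not deeper than the rest. Their median of the mural list was 15 UMIs per 5000 in AF75, against 24 in the others, and 21 against 29 in AF76.

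Reference barcodes with many genes were also rich in cycling barcodes. In AF75 the share high in the cycling list was 0.906% at 2000 to 3000 genes, 4.99% at 3000 to 4000, 20.7% (18.04–23.7) at 4000 to 5000 and 29.5% in the gene-rich barcodes. In AF76 it was 3.57%, 3.91%, 10.1% (8.54–11.9) and 18.1%. All barcodes in these shares were thinned to the same 5000 UMIs, and the classes by number of genes were chosen after values had been seen. Against the reference of 4000 to 5000 genes, the log2 ratio of the G2/M list fell from 0.86 to 0.10 in AF75 and from 0.89 to 0.53 in AF76. With the limit for a high barcode taken from that reference, 2.16% of the gene-rich barcodes of AF75 were high, and at 20000 UMIs, where only deep reference barcodes enter, 4.32% were. The G2/M shift of AF75 was therefore shared with the reference barcodes just below the limit. Within 100 genes below the limit the list stood at 2162 CPM in AF75 and 1520 in AF76, and within 100 genes above it at 1809 and 2348.

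**Figure D3:**
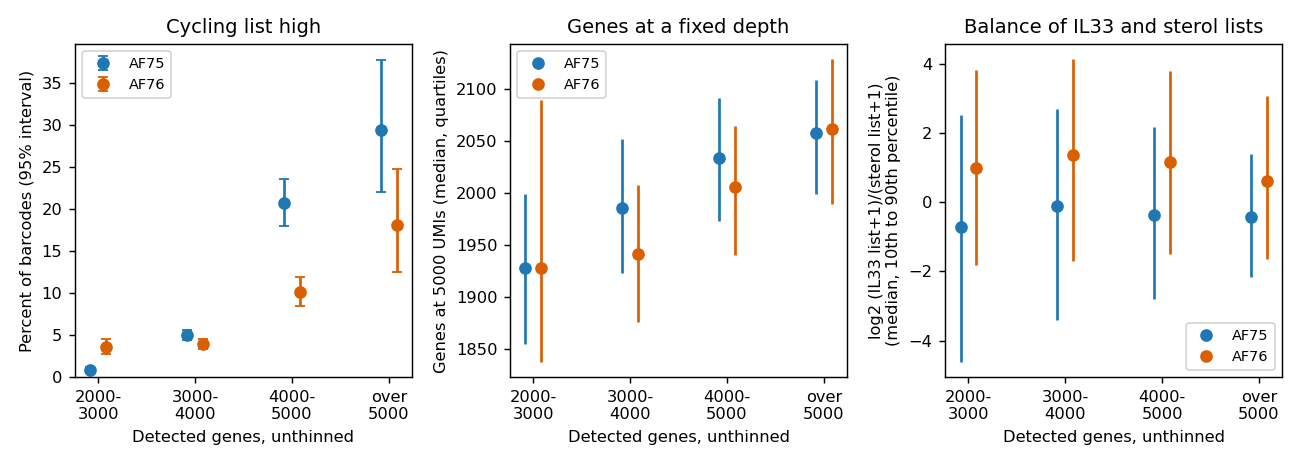
Reference barcodes in 3 classes of detected genes and the gene-rich barcodes (over 5000), by follicle, all thinned to 5000 UMIs: percent high in the cycling list with 95% counting intervals, genes found (median and quartiles), and the log2 balance of the IL33 and sterol lists (median, 10th to 90th percentile). The cycling share climbs to 29.5% in AF75 and 18.1% in AF76, the genes found rise to 2058 and 2062, and the span of the balance in AF75 narrows from 7.12 to 3.54 log2 units.

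The gene-rich barcodes mostly carried granulosa transcripts at the reference level. The granulosa list, 16 genes such as INHA, the gap junction gene GJA1 and the steroidogenic enzyme gene CYP11A1, was at 31029 CPM against 32679 in AF75 and 30443 against 33798 in AF76, and none of its genes with a mean of at least 10 CPM passed 1.5-fold. INHA had a median of 193 UMIs per 10000 in AF75, from 13.3 to 360.4, and of 204 in AF76, from 8.70 to 349.7. The reference medians were 197 and 222. Steroidogenic genes as a list had log2 ratios of 0.01 and -0.02. Heat shock genes were at -0.04 in both follicles, glycolysis genes at 0.02 and -0.03, apoptosis genes at 0.07 in both, and the mitochondrial genes at -0.17 and 0.03. No list of a cell function had more than 1 gene past 1.5-fold at that mean. That gene was THBS1, which encodes the matrix protein thrombospondin 1, at 153 against 53.0 CPM in AF76. There the same 13 CEMIP barcodes held 426 of its UMIs. The other 153 stood at 78.8 CPM, which is less than 1.5-fold above the reference, with the CEMIP barcodes of the reference kept in. In AF75 THBS1 was at 255.5 against 363.

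The mural, sterol and cumulus lists of granulosa cells were, as sums, near the reference level too. The mural list (IL33, AREG, CYP19A1, TGFB3, ENPP2 and LIMCH1) had a log2 ratio of -0.22 in AF75 and -0.24 in AF76. AREG, an epidermal growth factor-like ligand of the ovulatory cascade, was at 2374 against 2776 CPM in AF75 and at 4344 against 5321 in AF76. The sterol list (APOA1 and genes such as SQLE of cholesterol synthesis) was at -0.01 and 0.07. The cumulus list was at -0.26 and -0.02. In each follicle 1 of its genes was at least 1.5-fold lower, ALPK2 in AF75 (log2 ratio -0.67) and TNFAIP6 in AF76 (-0.76). Only 2 of its genes had a mean of at least 10 CPM in AF76, TNFAIP6 and VCAN. VCAN was at 0.27 there, so the sum of AF76 joins shifts of opposite sign. TNFAIP6, which cross-links the hyaluronan of the expanding cumulus, was at 687 against 924 CPM in AF75 and at 135 against 229 in AF76, and VCAN, a hyaluronan-binding proteoglycan, at 1802 against 2054 and 514 against 426.

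**Figure D4:**
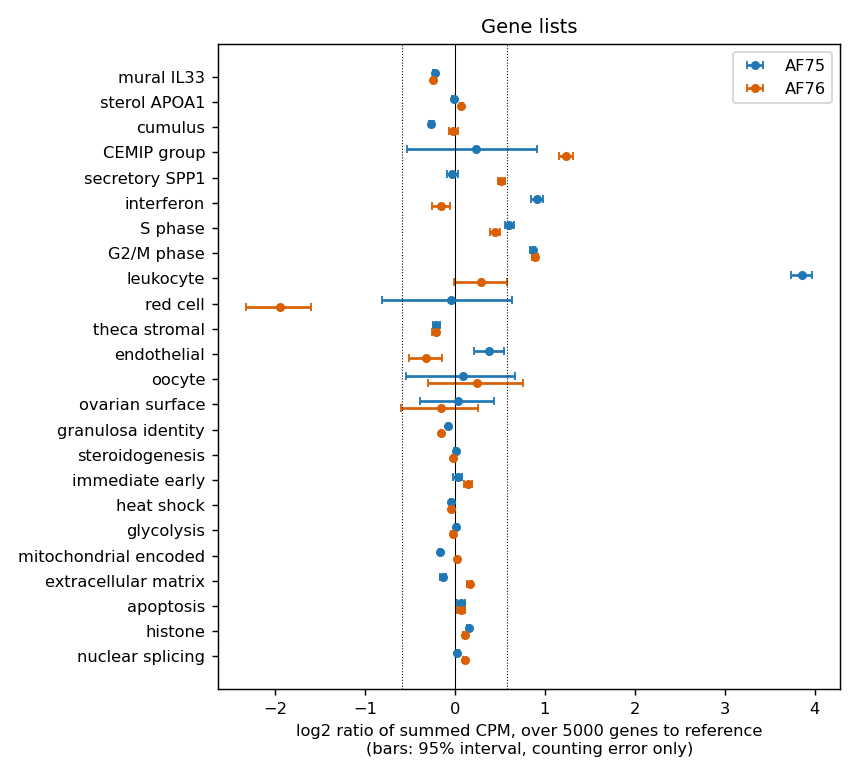
log2 ratio of summed CPM, gene-rich to reference barcodes, for each of the 24 gene lists in AF75 and AF76, with 95% counting intervals; dotted lines mark 1.5-fold. G2/M genes lie at 0.86 and 0.89, the leukocyte list of AF75 at 3.85, the CEMIP list of AF76 at 1.24 and the red cell list of AF76 at -1.95, and most other lists lie near 0.

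Marker mixing was examined over 7 state lists and their 21 pairs. High levels of 2 lists in a barcode were about as frequent as in the reference. In AF75 7 gene-rich barcodes (5.04%, 2.05–10.1) were high in 2 lists, against 3.25% of the reference in at least 2, and in AF76 7 (4.22%, 1.71–8.50) against 3.75%. None was high in 3. The reference shares lie within the intervals. Of the 7 in AF75 the cycling list was one of the pair in each case, with the interferon list in 4, the secretory list in 2 and the cumulus list in 1. In AF76 cycling was paired with the CEMIP list in 2, the secretory list in 2 and the interferon list in 1. The other two were high in the sterol and cumulus lists and in the cumulus and secretory lists. No gene-rich barcode was high in both the mural and the cumulus list or in both the mural and the sterol list, and 0 barcodes allow a share of up to 2.62% in AF75 and 2.20% in AF76. In the reference the mural and sterol lists were both high in 0.139% and 0.142%, and the mural and cumulus lists in 0% and 0.310%. Shares this low lie under the upper limits for 0 barcodes, so these pairs cannot tell the sets apart. A barcode with moderate levels of 2 lists is not counted by this measure.

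High levels of the mural list were rarer in the gene-rich barcodes than in the reference as a whole. The mural list was high in 1 barcode of each follicle (0.719%, 0.018–3.94, and 0.602%, 0.015–3.31), against 4.99% and 4.96% of the reference. The sterol list was high in 1 barcode of AF75 (0.719%, 0.018–3.94) against 4.98%, and in 3 of AF76 (1.81%, 0.374–5.19) against 4.82%. The cumulus list was high in 2 of AF75 (1.44%, 0.175–5.10) against 4.96%, and in 3 of AF76 (1.81%, 0.374–5.19) against 4.87%. The reference share lay within the interval for the sterol list of AF76 and for the cumulus list of both follicles. In AF75 the shares of the reference of 4000 to 5000 genes lay within the intervals of the gene-rich barcodes for each of these lists. In AF76 they did so for the sterol and cumulus lists, and the mural share lay above the interval. In AF75 these shares thus do not set the gene-rich barcodes apart from the reference barcodes with many genes. The balance between mural and sterol lists, as the log2 ratio of their UMIs plus 1 at 5000 UMIs, spanned 3.54 between its 10th and 90th percentiles in AF75, against 6.51 in the reference and 4.96 in the reference of 4000 to 5000 genes. In AF76 it spanned 4.73, against 5.68 and 5.26. At 20000 UMIs the span in AF75 was 3.51 against 5.13. The gene-rich barcodes thus had more even levels of both lists, most clearly in AF75, and the reference barcodes with many genes lay between.

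Moderate levels of 2 lists were also counted together at 5000 UMIs. Levels above the reference median of both the mural and the cumulus list were found in 23.0% (16.3–30.9) of gene-rich barcodes of AF75 against 11.8% of the reference, and in 22.3% (16.2–29.4) of AF76 against 18.02%. For the mural and sterol lists the shares were 28.8% (21.4–37.1) against 17.4% in AF75 and 25.9% (19.4–33.3) against 22.0% in AF76. The reference of 4000 to 5000 genes had 20.3% and 21.2% for the first pair and 24.1% and 26.8% for the second, within the intervals of the gene-rich barcodes. In AF76 the reference shares of both pairs also lay within those intervals. For the sterol and cumulus lists the share was 37.4% (29.4–46.0) against 31.0% in AF75, within the interval, and 50.6% (42.7–58.4) against 28.5% in AF76, where the reference of 4000 to 5000 genes had 36.4%, also below the interval. In AF76 the reference median of the cumulus list was 1 UMI at 5000 UMIs and 6 at 20000, so at 5000 UMIs its level there rests on very few counts. At 20000 UMIs the sterol and cumulus pair was at 32.4% (24.7–40.8) against 32.0% in AF75 and at 34.9% (27.7–42.7) against 29.4% in AF76. At 20000 UMIs the first pair was at 17.99% against 15.6% in AF75 and at 21.7% against 18.7% in AF76. This measure was chosen after values had been seen.

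Doublets were not removed from either set. A Scrublet score, which sets each barcode beside artificial doublets made from the same library, had a median of 0.317 in the gene-rich barcodes of AF75 and 0.261 in those of AF76, against 0.133 and 0.126 in the reference. With the limit set at the score that 6.88% of the reference of AF75 and 6.72% of that of AF76 exceeded, 73 gene-rich barcodes of AF75 (52.5%) and 67 of AF76 (40.4%) lay above it. In the reference of 4000 to 5000 genes 29.5% and 17.6% did. The share of barcodes above the limit thus rose with the number of genes. The part of doublets in the results above was not tested.

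A few gene-rich barcodes stood apart from the rest by what they contained. In AF75 the leukocyte list (14 genes such as PTPRC, the CD45 antigen, and AIF1, a marker of macrophages) was at 201 CPM against 13.9, a ratio of 14.5 (13.3–15.7). Of its 946 UMIs, 897 (94.8%) lay in 2 barcodes, which were called leukocyte-like for having at least 10 UMIs over at least 3 of the markers. This limit was set after values had been seen. Without them the log2 ratio of the list was -0.38 in place of 3.85, and 98 genes in place of 166 were at least 1.5-fold higher in AF75. In AF76 the list was at 19.4 against 15.8 CPM, a ratio of 1.22 (0.994–1.49). Leukocyte-like barcodes were 1.44% (0.175–5.10) of the gene-rich barcodes of AF75 and 0.602% (0.015–3.31) of AF76, against 0.011% and 0.128% of the reference, where they numbered 1 and 10. This limit is on UMIs at full depth and was not adjusted for depth. At 5000 UMIs the leukocyte list was high in the same number of gene-rich barcodes, 2 and 1, and in 11 (0.118%) and 20 (0.258%) of the reference.

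The leukocyte-like barcodes of AF75 carried macrophage genes and few granulosa transcripts. One was the barcode with the most genes in that follicle, 7695 genes from 93850 UMIs, and the other had 5316 genes from 30155 UMIs. Together they held 708 UMIs of C1QA, a chain of complement C1q that macrophages make, against 3 in the other 137 gene-rich barcodes. They held 506 of C1QB against 1, 277 of the mannose receptor MRC1 against 0, 223 of the scavenger receptor MARCO against 0, 96 of CD163, the haemoglobin scavenger receptor, against 0, and 633 of the lectin CD209 against 0. Their granulosa list was at 18.1 and 17.2 UMIs per 10000, against a median of 311 over all gene-rich barcodes of AF75. Both were high in the cycling list, with 496 and 362 UMIs of G2/M genes, and in the interferon list. Their Scrublet scores were 0.0596 and 0.0401.

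The leukocyte-like barcode of AF76 held both kinds of marker. It had 5284 genes from 27192 UMIs, with 20 UMIs of PTPRC, 24 of CD52, a lymphocyte surface antigen, and 14 of LCP1, an actin-bundling protein of blood cells. The macrophage genes AIF1, C1QA, C1QB and CD163 were at 0. The same barcode had 428 UMIs of INHA, 251 of AREG and 155 of IL33, and its granulosa list was at 223 UMIs per 10000. It was also high in the cycling list, with 229 UMIs of G2/M genes, and its Scrublet score was 0.0749. Whether it held more than 1 cell was not tested.

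**Figure D5:**
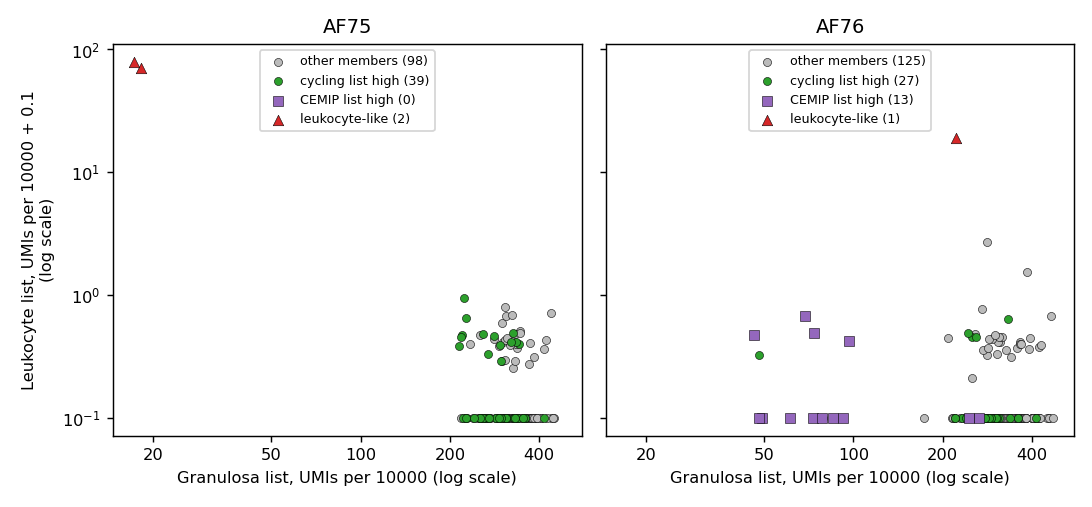
Leukocyte list against granulosa list, both as UMIs per 10000 on log scales (0.1 added to the leukocyte list), for each gene-rich barcode of AF75 (left) and AF76 (right), in the colours of the plot of genes against UMIs. The 2 leukocyte-like barcodes of AF75 lie apart at 18.1 and 17.2 on the granulosa axis, that of AF76 lies among the granulosa barcodes at 223, and 11 of the 13 CEMIP barcodes lie below 111.

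The CEMIP list (CEMIP, which breaks down hyaluronan, with CCDC80, DEFB1 and FBXO32) separated the follicles. In AF76 it was at 294 against 125 CPM, a ratio of 2.36 (2.23–2.48). By the mean of per-barcode CPM, which weighs each barcode alike, the log2 ratio was 0.56 in place of 1.24, under 1.5-fold. In all 13 of 166 gene-rich barcodes (7.83%, 4.24–13.0) were high in it, against 4.81% of the reference, which lies within that interval. In AF75 none was high (0%, up to 2.62%) and 5 of the reference barcodes were, and the list was at 3.83 against 3.25 CPM. In the reference of AF76 the share high in the list was 16.9% at 2000 to 3000 genes, 1.22% at 3000 to 4000 and 2.30% (1.56–3.27) at 4000 to 5000, where the interval lies below that of the gene-rich barcodes.

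The 13 CEMIP barcodes of AF76 had more genes for their depth than the rest. They had a median of 5800 genes from 29454 UMIs, and at 5000 UMIs 2300 genes (quartiles 2254 and 2340), against 2049 (1979 and 2091) in the 125 barcodes of AF76 that were high in neither this nor the cycling list and not leukocyte-like. The 372 CEMIP barcodes of the reference had a median of 6793.5 UMIs and, at 5000 UMIs, 2182 genes. Of the 11 barcodes of AF76 with over 6000 genes, 4 were CEMIP barcodes. Their median Scrublet score was 0.0406, against 0.298 in the 125.

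These barcodes were chosen by the CEMIP list, so its genes are given as a description. CEMIP was at 2321 CPM in the 13 and 15.2 in the other 153 gene-rich barcodes, and CCDC80 at 765 and 17.0. Genes outside the list differed as well. SELENOP, a selenium carrier, was at 1967 and 93.3 CPM, the stress-responsive gene NUPR1 at 1962 and 148, TXNIP at 1461 and 106, THBS1 at 1135 and 78.8, and the transcription factor gene FOXO1 at 552 and 56.9. MYH11 and TAGLN, genes of the contractile apparatus of smooth muscle, were at 123 and 1.22 CPM and at 237 and 8.91. INHA was at 4382 against 21080 CPM, IL33 at 522 against 2439 and AREG at 1197 against 4583, while CYP11A1, which starts steroid synthesis from cholesterol, was at 1746 against 1631.

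Not all 13 were alike. In 11 of them the granulosa list lay between 46.3 and 96.4 UMIs per 10000 and INHA between 20 and 63 UMIs. In the other two it lay at 265 and 246, with 583 and 547 UMIs of INHA beside 51 and 0 of CEMIP and 8 and 36 of CCDC80. Their Scrublet scores were 0.552 and 0.261. CEMIP and CCDC80 themselves were unevenly shared. A barcode with 6035 genes had 1 UMI of CEMIP and 29 of CCDC80, and a barcode with 5710 genes had 141 and 20.

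In AF76 14 gene-rich barcodes had a granulosa list below 111 UMIs per 10000, the median of the reference divided by 3 (a limit set after values had been seen), and 11 of these were CEMIP barcodes. The other 3 were described by their leading genes. One, with 6596 genes from 44853 UMIs, had 79 UMIs of CRYM, a thyroid hormone-binding protein, and 41 of SPHK1, sphingosine kinase, with 15 of TOP2A and a ribosomal protein share of 19.99%. It was high in the cycling list. The other two had 99 and 41 UMIs of THBS1 and 69 and 30 of NUPR1. In AF75 2 barcodes lay below 107 UMIs per 10000, and they were the leukocyte-like ones. In the reference 0.0855% of barcodes in AF75 and 7.03% in AF76 lay below these limits.

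Secretory and interferon genes were raised in single barcodes. The secretory list (SPP1, SCG2, ALDH1A2, CTSS, CXCL14 and SLC24A1) was at 458 against 468 CPM in AF75 and at 1032 against 721 in AF76. In AF76 25.2% of it lay in 1 barcode of 5987 genes with 1213 UMIs of SCG2, secretogranin II of secretory granules. In AF75 SPP1, which encodes osteopontin, was at 23.0 against 5.92 CPM, with 82.4% of its UMIs in the largest leukocyte-like barcode. The interferon list was at 362 against 192 CPM in AF75, with 37.9% in 1 barcode of 5922 genes that was also high in the cycling list and had 409 UMIs of INHA. ISG15, a ubiquitin-like protein induced by interferon, was at 297 against 174 CPM there. In AF76 the list was at 160 against 177 CPM and ISG15 at 141 against 159.

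Of the other cell types, none was prominent. The red cell list was at 3.83 against 3.95 CPM in AF75 and at 12.4 against 47.9 in AF76, where HBB, beta-globin, was at 9.97 against 45.6 and AHSP, HBM and ALAS2 at 0. The theca and stromal list had log2 ratios of -0.20 and -0.21, which rest mostly on RGS5 and INSL3. These held 3547 and 1270 of its 4894 UMIs in AF75 and 2904 and 1911 of 5145 in AF76. In AF76 the 3 genes of the list with a mean of at least 10 CPM were RGS5 (ratio 0.930), INSL3 (0.724) and TAGLN (1.497). The other genes of the list were below that mean in both follicles and differed in both directions. The endothelial list was at 66.3 against 50.8 CPM and 46.9 against 58.7, with CDH5, which encodes the adhesion molecule of endothelial junctions, at 0 in both follicles. In AF75 the leukocyte-like barcodes held 68 and 29 of the 312 endothelial UMIs. Oocyte genes were at 5.31 and 6.21 CPM, against 4.97 and 5.22, and ovarian surface genes at 11.05 and 9.22, against 10.8 and 10.3. Each value was nearly that of 1 gene. GDF9 held 25 of the 25 oocyte UMIs in AF75 and 32 of the 33 in AF76, and EPCAM 50 of the 52 and 47 of the 49 surface UMIs. The part of these low levels in the results was not tested.

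When the leukocyte-like barcodes and those high in the cycling or CEMIP list were left out, 98 gene-rich barcodes of AF75 and 125 of AF76 remained. This step was chosen after values had been seen. It was taken on the gene-rich barcodes alone. The reference kept its own cycling barcodes (458 and 378) and CEMIP barcodes (5 and 372). The step itself thus lowers genes that are high in such barcodes, so the counts that follow do not compare like sets. In AF75 37 genes were then at least 1.5-fold higher and 32 lower than in the reference, in AF76 36 higher and 27 lower, and 1 gene was higher in both, where 54 had been. That gene was DKK2, a secreted modulator of Wnt signalling, at 23.9 against 14.03 CPM in AF75 and 21.2 against 11.5 in AF76. Over all gene-rich barcodes 27.2% of the DKK2 UMIs of AF75 and 21.0% of those of AF76 lay in a single barcode. Its relative DKK1, a secreted Wnt antagonist, was then lower in both, at 22.2 against 33.7 CPM and 20.7 against 35.9, as were TGM3 and ENSSSCG00000034846. The log2 ratio of the G2/M list was -0.22 and -0.12, as leaving out cycling barcodes entails. The remaining barcodes had medians of 31770 and 31529 UMIs and, at 5000 UMIs, 2047.5 and 2049 genes, and 51 and 63 of them lay above the Scrublet limit.

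The ratios of some single genes differed between the follicles. Of the 7113 genes measured in both follicles, 54 (0.759%) were higher in each. In AF75 166 (2.26% of those measured) were higher, and in AF76 171 (2.34%). A single barcode held over 10% of the UMIs for 87 and 45 of these, so the number not shared is no measure of a difference between follicles. Among genes with at least 20 CPM in both and no barcode above 10%, AOX1, an aldehyde oxidase, differed most. It was at 16.6 against 23.7 CPM in AF75 (ratio 0.699, 0.551–0.876) and at 32.0 against 15.2 in AF76 (2.10, 1.79–2.47). In the CEMIP barcodes of AF76 AOX1 was at 224 CPM, against 17.4 in the others. ANTXR1, a receptor for collagen, had log2 ratios of -0.17 and 0.79, and was at 325 against 32.4 CPM in the CEMIP barcodes. HACD4, of fatty acid elongation, stood at -0.11 and 0.63 and ENSSSCG00000023322 at -0.29 and 0.68, and CENPF was the other of the 5 with the larger ratio in AF76. With the larger ratio in AF75, LYAR, a nucleolar protein, stood at 0.51 and -0.38, BVES at 0.10 and -0.52, STARD3NL at 0.28 and -0.34, ENSSSCG00000025673 at 0.33 and -0.21 and GTPBP3, which modifies mitochondrial transfer RNA, at 0.30 and -0.23. None of the 5 passed 1.5-fold in AF75, and with 1 library per follicle the differences could not be tested.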

How the data were processed

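Somatic cells of 2 follicles of 1 pig were measured by 10x Genomics 3′ v3.1 RNA sequencing, with 1 library per follicle and no replicate. The authors deposited whole UMI counts per gene and called barcode, made with CellRanger 6.0.2 on Sscrofa11.1, before any filter on cells or normalization. A gene was named by the symbol of the deposited list, or for 1042 genes by a reference table of the same assembly. HSD17B1 was left out because the 2 sources name its row differently.

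UMIs were summed over barcodes and scaled to CPM (Python 3.11.15, numpy 2.4.6, scipy 1.17.1, pandas 2.3.3, matplotlib 3.10.9). Scrublet was run in scanpy 1.11.5. Genes with a mean of at least 10 CPM were measured, and 1.5-fold was the limit for a call. Of 379 entries in 24 lists 349 were found. Named genes were, at 20 CPM in both follicles and at most 10% of UMIs in a single barcode, the 15 largest and smallest mean log2 ratios past 1.5-fold in both (10 and 1 existed) and the 5 largest differences each way, besides list genes. Other genes were chosen after their values were seen, and an item of the lists is not reported here. The barcodes studied, the lists and the comparisons were chosen with earlier results of these data known. The calculation of the ratio and its interval was checked on simulated counts of known ratio. PCR copies and differences between animals are outside the counting intervals. Alternatives changed the reference, limits, scaling, depth, percentile and seed.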

Additional observations from a re-analysis of the deposited data

Results flagged for a closer look

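The log2 ratio of gene-rich to reference barcodes had opposite signs in the follicles, past 1.5-fold in one of them, for the interferon list and for 2 of the named genes. The interferon list was at 0.91 in AF75 and -0.15 in AF76, and at 0.82 in AF75 without the leukocyte-like barcodes and 0.01 without the cycling barcodes, which include the one that held 37.9% of it. AOX1 was at -0.52 in AF75 and 1.07 in AF76. ENSSSCG00000023322 was at -0.29 and 0.68. Each follicle was 1 library, and these differences were not tested.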

How the results depend on the processing

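No paired analysis was possible because each follicle gave 1 library. Values are for AF75 and AF76 in turn, and the settings that leave barcodes out were chosen after seeing the data. Leukocyte-like, cycling and CEMIP barcodes were left out of the gene-rich set only, and the reference kept its own. The reference of 4000 to 5000 genes gave 72 genes higher in AF75, 18 lower in AF76, 11 higher and 0 lower in both, a G2/M log2 ratio of 0.10 and 0.53 (difference 0.43), a leukocyte ratio of 4.05 in AF75, a CEMIP ratio of 1.86 in AF76, a cycling share of 2.16% in AF75, and an excess of genes at fixed depth of 1.18% and 2.79%, in place of 4.36% and 5.69%. Over 5500 genes, 47 and 48 barcodes with medians of 36449 and 36858 UMIs gave 399 and 815 genes higher, 69 and 78 lower, 104 higher and 9 lower in both, a G2/M ratio of 0.95 and 0.66 (difference -0.29), a leukocyte ratio of 4.60, a CEMIP ratio of 2.47 and an excess of genes of 6.69% and 7.79%. Without the 1 barcode of 7% or more mitochondrial UMIs, the G2/M ratio of AF76 was 0.86. Median-of-ratios scaling gave G2/M ratios of 0.82 and 0.81, a CEMIP ratio of 1.16, and 102 genes higher and 22 lower in AF76. The mean of per-barcode CPM gave G2/M ratios of 1.00 and 1.00, a leukocyte ratio of 3.05 and a CEMIP ratio of 0.56. At 50 CPM 23 and 16 genes were higher, 1 and 1 lower, 6 higher and 0 lower in both. With no CPM limit 2031 and 2155 were higher, 585 and 451 lower, 794 higher and 85 lower in both. At 2-fold 85 and 46 were higher, 1 and 3 lower, 26 higher and 0 lower in both. Thinning to 10000 and 20000 UMIs gave cycling shares of 16.5% and 4.32% in AF75. The 90th percentile put 14.4% and 15.7% of barcodes high in at least 2 lists. Without the leukocyte-like barcodes, 98 genes were higher in AF75, its G2/M ratio was 0.77 (difference 0.10) and its leukocyte ratio -0.38. Without the cycling barcodes, 37 genes were higher and 32 lower in AF75, 4 were higher in both (SPIRE1, DKK2, KHDRBS3 and GAS7), the G2/M ratio was -0.22 and -0.13 (difference 0.087), and the S phase ratio -0.026 and the leukocyte ratio -0.49 in AF75. Without cycling, CEMIP and leukocyte-like barcodes, AF75 had the same values, since the same barcodes were left out there, AF76 had 36 genes higher and 27 lower, a G2/M ratio of -0.12 (difference 0.10) and a CEMIP ratio of -1.49, and 1 gene was higher in both. The reversals follow from leaving out the barcodes that carry the list. The causes of the other shifts were not tested. Another seed, other library sizes and a reference without high Scrublet scores moved none of these main values. At 5000 UMIs a list with fewer than 3 UMIs in a barcode could not be called high.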
